A study of Mus musculus with 4 samples.

Results

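The S100 calcium binding genes described here are S100a1, S100a4, S100a6, S100a8, S100a9, S100a10, S100a11, S100a13, S100a14 and S100a16. They were chosen by gene name: every array probe that carried one of these names was taken, which gave 13 probes for 10 genes, out of 39429 gene probes and 21518 genes tested. All 13 probes passed the filter on dim probes, and on each of the 4 arrays both genotypes gave a signal well above background. RNA of whole ureters from E15.5 mice (strain NMRI) was measured on 4 arrays with 2 colours, and every array set a ΔNp63-cKO RNA against a control RNA. The cKO genotype is Pax2-cre/+; Trp63(dN-flox/dN-flox), and the control genotype is Trp63(dN-flox/?), with no cre listed. Every RNA thus comes from a carrier of at least 1 floxed ΔN allele of Trp63. The Pax2 promoter drives the cre and limits the deletion to cells in which it was active and to their descendants. Since cre is listed for all 4 cKO RNAs and for no control RNA, the cre itself and the loss of ΔNp63 cannot be told apart. Replicates 1 and 2 are female pairs and replicates 3 and 4 male pairs. The cKO RNA was in the red channel in replicates 1 and 3 and in the green channel in replicates 2 and 4. The labels do not say whether replicates are separate embryos or pools, so the p-values measure the spread between these samples, which may be technical.

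S100 proteins are small proteins with a pair of EF-hand calcium binding motifs. Most act as dimers: calcium opens a surface on each subunit, and that surface binds a target such as an annexin, a cytoskeletal protein or, outside the cell, a receptor such as RAGE or Tlr4. Many S100 genes lie side by side in the epidermal differentiation complex, a region that also holds cornified envelope genes, and several are known as epithelial genes, while S100a8 and S100a9 are known from neutrophils. ΔNp63 is the p63 isoform that maintains basal cells in layered epithelia such as the urothelium. All 10 genes lie on chromosome 3 (mouse build mm9 in the array files), with probes between 90314959 and 93368496.

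RefSeq promoter windows (build GRCm38.p6, 250 bases before the listed start) were found for 8 of the 10 genes and not for S100a10 and S100a14. The sequences below are shown because they give the regulatory layout that the members do and do not share; matches to the searched motifs are in capitals, and both strands were searched. S100a1 and S100a13 start head to head, S100a1 on the minus strand at 90514330 and S100a13 on the plus strand at 90514435, and the 104 bases between their starts have a GC content of 58.7% and hold none of the motifs. For S100a4, S100a8 and S100a11 the last 50 bases before the start are given, and for S100a9 the only match to the p53 family decamer consensus among the members, searched because p63 belongs to that family.
S100a1 to S100a13, chr3:90514331-90514434, plus strand: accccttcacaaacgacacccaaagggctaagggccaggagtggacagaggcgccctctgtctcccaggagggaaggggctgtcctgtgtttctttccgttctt
S100a4, chr3:90603720-90603769, plus strand: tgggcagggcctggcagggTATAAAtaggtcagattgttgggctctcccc
S100a8, chr3:90669021-90669070, plus strand: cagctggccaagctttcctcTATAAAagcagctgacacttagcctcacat
S100a11, chr3:93520446-93520495, plus strand: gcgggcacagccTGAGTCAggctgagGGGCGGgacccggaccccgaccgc
S100a9, chr3:90695860-90695889, minus strand: gtttccccccAAACAAGCTCcaagcccagg

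The TATA box letters TATAAA begin 31 bases before the start of S100a4 and 30 bases before that of S100a8, and 12.4% of 32851 mouse windows of this length hold them. In S100a9 the same letters begin at the listed start base itself, outside the 250 bases searched. The AP-1 letters TGANTCA occur in the windows of S100a11 (2 matches) and of the later of the listed starts of S100a16 (1 match), against 6.75% of all windows. The GC box letters GGGCGG occur 3 times in the window of S100a11, and once each in those of S100a9 and the later S100a16 start, against 32.7% of all windows. CCAAT occurs only in the window of S100a6, 228 bases before the start, against 33.8%. The p53 family consensus is held by 7.13% of all windows. A match describes these letters and does not show a bound site.

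Array quality was similar over the 4 arrays. The green channel had median signals of 382 to 416 and the red channel of 519 to 617. The share of spots well above background was 74.9% to 77.0% in green and 71.8% to 73.2% in red, and 0 spots were saturated. The number of arrays limits the precision. Across genes, which are not independent replicates, the ratios of replicates 2 and 3 had a Pearson r of 0.62, the highest of any pair of arrays, and those of replicates 2 and 4 the lowest, -0.06. Trp63, the targeted gene, was lower in the cKO RNA of each array (log2 ratios of cKO over control, in replicate order, of -1.39, -1.18, -1.30 and -1.62). The mean was -1.37 ± 0.18 (SD, n = 4), with adjusted p = 0.00327 by limma. These values are of its brightest probe. Of its 3 other probes, 1 gave a mean of -1.26 ± 0.36, 1 gave -0.81 ± 0.34 (adjusted p = 0.0545, limma over probes) and 1 gave -0.02 ± 0.16, and the mean over the probes was -0.87. Which of them lie in the floxed part was not analysed here. Of 21518 genes tested with limma, 257 passed an adjusted p of 0.05 (Benjamini-Hochberg), 1.19% of them all, with 150 lower (0.697%) and 107 higher (0.497%). The count was 937 without replicate 2 and 1601 without replicate 4.

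Among the S100 genes, S100a14 was lower in cKO ureters and the other 9 did not pass the test. This is 1 gene of 10 and, with each probe tested by itself, 1 probe of 13, against 1.19% of all genes and 1.01% of all probes. At an unadjusted p under 0.05, 2 of the 10 passed, S100a14 (lower) and S100a6 (higher), against 8.03% of all genes (4.31% lower and 3.72% higher). The median log2 ratio of the 10 genes was -0.01, and that of all genes -0.000244. The 4 cKO levels lay apart from the 4 control levels for the same 2 of 10 genes, against 6.38% of all genes. The SD of the 4 ratios ranged from 0.06 (S100a6) to 0.45 (S100a9), so a shift the size of that in S100a6 would lie inside the array to array spread of S100a9.

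**Figure D1:**
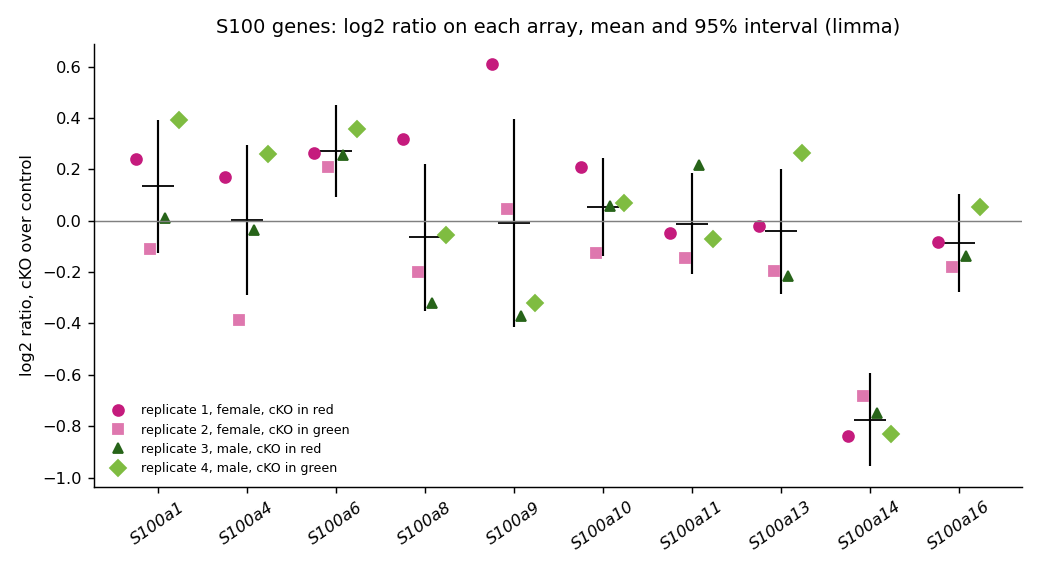
Log2 ratio of cKO over control on each of the 4 arrays (points, y axis) for the 10 S100 genes (x axis), with the mean (horizontal bar) and its 95% interval from limma (vertical line). The 4 points of S100a14 lie between -0.84 and -0.68, below every point of the other genes, and those of S100a6 between 0.21 and 0.36.

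S100a14 is an epithelial S100 gene whose protein can pair with S100a16. Its normalised log2 intensity was 10.61, 10.37, 10.84 and 10.68 in the cKO RNA of replicates 1 to 4 and 11.45, 11.05, 11.59 and 11.51 in the control RNA. Every control level was above every cKO level, and replicate 2 was the lowest in both genotypes. The log2 ratios were -0.84, -0.68, -0.75 and -0.83, a mean of -0.78 ± 0.07 (SD, n = 4; 95% interval -0.96 to -0.59), or 1.71-fold lower (1.51 to 1.94), with adjusted p = 0.0104 by limma. It was lower on 4 of 4 arrays, as were 7.65% of all genes, and the mean was -0.76 in females and -0.79 in males. Its probe (A_51_P419226) lies on chromosome 3 at 90332439 to 90332498 (mm9, plus strand); the exon it matches was not analysed here. In the authors' deposited table of log2 ratios, S100a14 stood at -0.83, -0.80, -0.79 and -0.87. The same test on that table gave adjusted p = 0.127, with 1 gene of all passing and Trp63 also missing at adjusted p = 0.204.

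In RNA of whole ureters, fewer cells of a type and less RNA per cell cannot be told apart. Basal urothelial markers were lower beside S100a14: 8 of 10 listed genes fell, with a median log2 ratio of -1.32, and their summed intensity was 15503 to 18592 in cKO and 30236 to 39193 in control RNAs. Krt5, the basal keratin, was lower by a mean log2 ratio of -1.87 ± 0.42 (adjusted p = 0.00353). General epithelial markers showed 0 of 16 lower and 1 higher, Krt18, a simple epithelial keratin, at 0.50 ± 0.14 (limma adjusted p = 0.0378). Krt18 passed in 8 of 14 alternatives. It missed with processed signals (adjusted p = 0.0555), median centring (0.124), no filter on dim probes (0.0612), the authors' deposited table (0.180), without replicate 1 (0.177) and without replicate 3 (0.159). Its estimated log2 ratio was 0.49 to 0.51 throughout. Before adjustment, 4 of the 16 had p under 0.05 (limma) with lower and 3 with higher values, against 4.31% and 3.72% of all genes. The median log2 ratio of the 16 was -0.10, and it was below 0 on each of the 4 arrays. Their summed intensity, in which the brightest probes weigh most, was 589600 to 627210 in cKO and 533930 to 576480 in control RNAs. Of 12 superficial and intermediate urothelial markers, 2 were lower (Upk2, a uroplakin, at -0.54 ± 0.11, and Grhl3, a transcription factor, at -0.68 ± 0.22) and 1 higher (Krt20, a superficial cell keratin, at 1.92 ± 0.19). Before adjustment, 2 of these 12 had p under 0.05 (limma) with lower and 4 with higher values, against the same shares of all genes. The median log2 ratio of the 12 was 0.16. The part of these cell types in the S100a14 result was not tested.

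S100a16, the neighbour and binding partner of S100a14, had levels of 15.28, 15.29, 15.31 and 15.45 in cKO RNA and 15.36, 15.47, 15.45 and 15.40 in control RNA. The genotypes overlapped. Its log2 ratios were -0.08, -0.18, -0.14 and 0.05, a mean of -0.09 ± 0.10 (95% interval -0.28 to 0.10, adjusted p = 1.00 by limma), and its other probe gave -0.18, -0.23, -0.37 and 0.16, a mean of -0.16 ± 0.23. The interval of S100a16 does not reach that of S100a14, although their probes lie 14.1 kb apart. The difference of the log2 ratios, S100a14 minus S100a16, was -0.76, -0.50, -0.61 and -0.89, a mean of -0.69 ± 0.17. The ratio of S100a14 was below that of each of the 9 other members on 4 of 4 arrays, and an exact two-sided sign-flip test gave p = 0.125 for each of these 9 differences, the smallest p that 4 pairs allow. The mean difference ranged from -1.05 ± 0.13 against S100a6 to -0.69 against S100a16. S100a14 was singled out for its decrease, so these differences are a description.

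**Figure D2:**
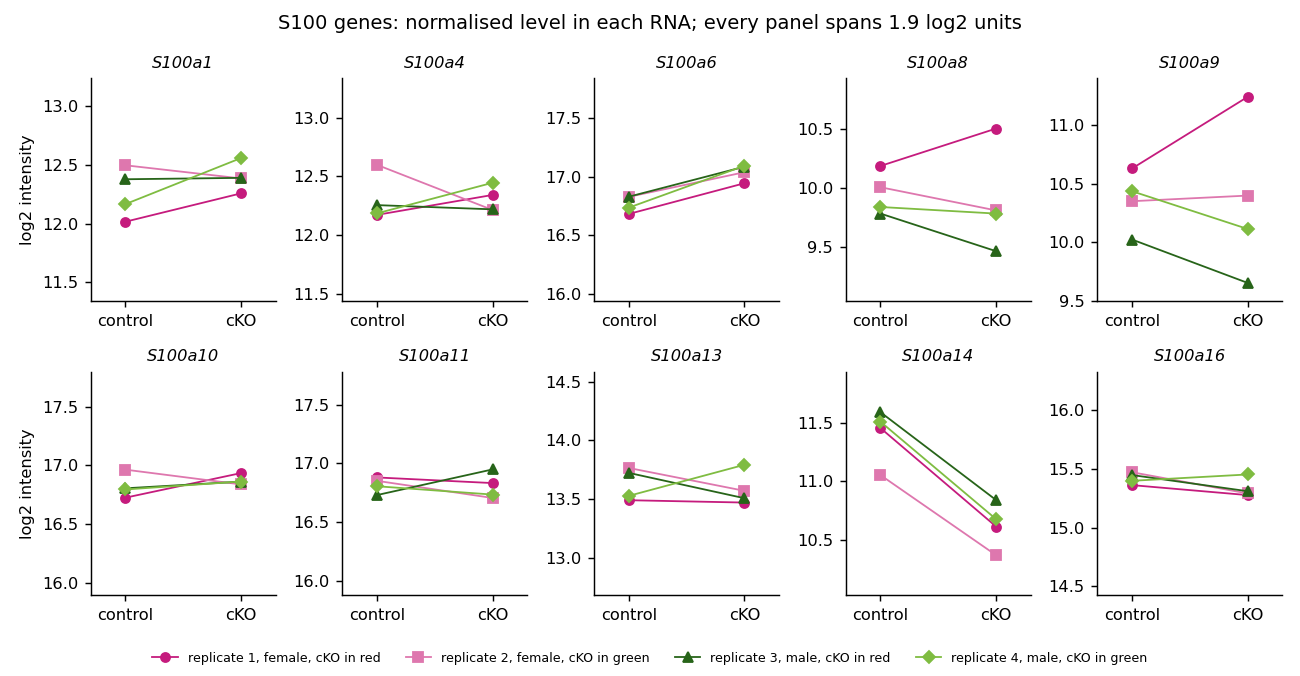
Normalised log2 intensity (y axis) of the 10 S100 genes in control and cKO RNA, with a line joining the 2 RNAs of an array; every panel spans 1.9 log2 units, and levels of different genes are not comparable. All 4 lines fall for S100a14 and all 4 rise for S100a6, while the lines of the other genes run in different directions or lie nearly flat.

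S100a6, S100a10 and S100a11 are the members best known as annexin partners. S100a6, or calcyclin, binds Anxa11 and Cacybp, and its level was 16.95, 17.04, 17.09 and 17.09 in cKO RNA and 16.68, 16.83, 16.83 and 16.74 in control RNA. All cKO levels were above all control levels, by little. The log2 ratios were 0.26, 0.21, 0.26 and 0.36, a mean of 0.27 ± 0.06 (95% interval 0.09 to 0.45), positive on 4 of 4 arrays as in 7.69% of all genes, with unadjusted p = 0.00975 and adjusted p = 0.267 by limma. It therefore did not pass the test, and under the 14 alternative settings the estimate stayed between 0.23 and 0.31 with adjusted p of 0.0575 or more. S100a10, which forms a tetramer with Anxa2 and does not need calcium to do so, gave ratios of 0.21, -0.13, 0.06 and 0.07, a mean of 0.05 ± 0.14 (95% interval -0.14 to 0.24). S100a11, a partner of Anxa1, gave -0.05, -0.15, 0.22 and -0.07, a mean of -0.01 ± 0.16 (-0.21 to 0.18). For neither did the ratios keep a sign over the arrays, and both had adjusted p = 1.00 by limma.

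S100a8 and S100a9 together form calprotectin, the metal binding protein of neutrophils. S100a9 was 11.24, 10.40, 9.66 and 10.12 in cKO RNA and 10.63, 10.35, 10.03 and 10.44 in control RNA. The female cKO RNA of replicate 1 was the highest and the male cKO RNA of replicate 3 the lowest, and the genotypes overlapped. The log2 ratios were 0.61, 0.05, -0.37 and -0.32, a mean of -0.01 ± 0.45 (95% interval -0.41 to 0.40). With 1 array left out, the limma estimate ran from -0.25 to 0.24. That estimate is not the plain mean: the array left alone in its dye orientation counts as much as the other 2 together. S100a8 gave 0.32, -0.20, -0.32 and -0.06, a mean of -0.06 ± 0.28 (-0.35 to 0.22), with its highest ratio also in replicate 1. Neither passed the test (adjusted p = 1.00, limma). The interval of S100a9 allows a change of 1.3-fold in either direction.

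Other neutrophil genes were read on the same arrays. Ltf, the lactoferrin gene, had ratios of 0.97, 0.22, -0.14 and 0.00, also highest in replicate 1, and was well above background on 3 of 4 arrays in cKO RNA. Of 16 listed neutrophil genes, 12 were tested, 0 were lower and 1 was higher, Ly6g, a surface antigen of neutrophils, at 1.10, 0.43, 0.97 and 1.06, a mean of 0.89 ± 0.32 (adjusted p = 0.0313 by limma; 0.146 with no filter on dim probes and 0.373 on the authors' deposited table). The defining genes Ngp, Cxcr2, Mmp8 and Fcnb were not well above background. The median over the tested list was 0.16 in replicate 1 and -0.03, -0.04 and 0.02 in replicates 2 to 4, and the summed intensity was 48797 to 58715 in cKO and 48373 to 53834 in control RNAs. Of 15 macrophage and leukocyte markers 0 passed (limma). Before adjustment 5 had p under 0.05 (limma), each lower, against 4.31% of all genes. The summed intensity of the 15 markers was 66455 to 72260 in cKO and 72843 to 81129 in control RNAs. Their part in the spread of S100a8 and S100a9 was not tested.

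**Figure D3:**
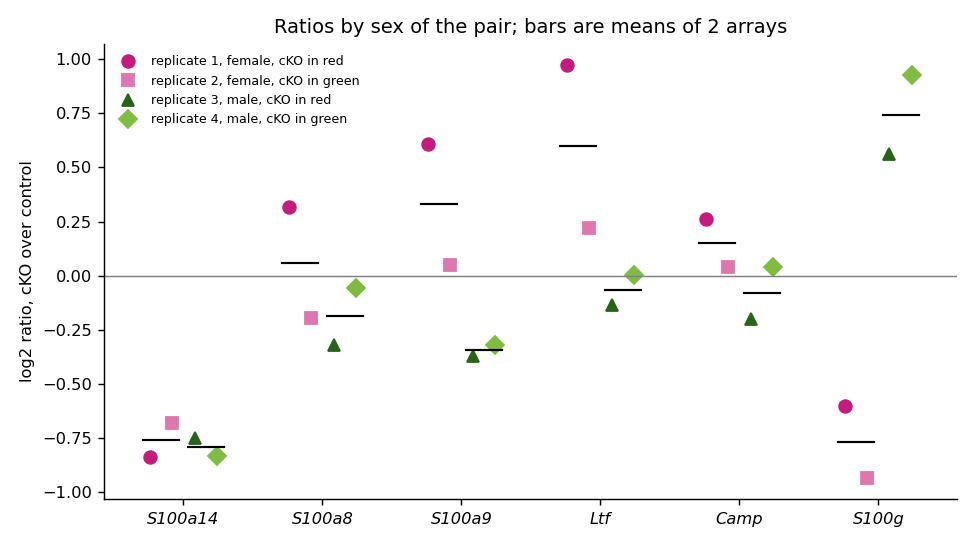
Log2 ratio of cKO over control on each array (points) for S100a14, S100a8, S100a9, the neutrophil genes Ltf and Camp and S100g, with the mean of the 2 arrays of each sex (bars). S100a9 lies above 0 in both female and below 0 in both male pairs, S100g shows the opposite, and S100a14 is lower in all 4 pairs. Ltf and Camp were picked from the 12 neutrophil genes tested. Ly6g, the only one of them that passed, was higher in all 4 pairs and is not shown.

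The plot of ratios by sex sets these genes beside S100a14, which had a female minus male difference of 0.03. S100a9 was above 0 in both female pairs and below 0 in both male pairs, as 5.31% of all genes showed such opposite signs, with a difference of 0.67 (unadjusted p = 0.0126, adjusted p = 1.00 by limma with a term for sex). Of the 10 members, 0 differed between the sexes after adjustment, against 15 of all genes (0.0697%). Before adjustment 1 member had p under 0.05, against 0.939% of all genes. In that fit 1 residual degree of freedom per gene is left, and limma assigned all genes the same variance, so the SE of the difference is 0.27 for each. For the dye effect, 0 members passed before or after adjustment (limma).

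S100a1, S100a4 and S100a13 are members with muscle, mesenchymal and secretion roles. S100a1, which binds ryanodine receptors in heart and skeletal muscle, gave ratios of 0.24, -0.11, 0.01 and 0.39, a mean of 0.13 ± 0.23 (95% interval -0.12 to 0.39), and its second probe a mean of 0.12 ± 0.35. S100a4, a regulator of non-muscle myosin Myh9 in motile and fibroblast-like cells, gave 0.17, -0.39, -0.04 and 0.26, a mean of 0.00 ± 0.29 (-0.29 to 0.30), and its second probe 0.02 ± 0.20. For both genes the 2 probes shared their order of arrays at the extremes, with replicate 4 highest and replicate 2 lowest. S100a13, which takes part in the export of Fgf1, gave -0.02, -0.20, -0.22 and 0.26, a mean of -0.04 ± 0.22 (-0.29 to 0.20). All 3 genes had adjusted p = 1.00 by limma.

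S100a1 and S100a13, whose starts face each other over the 104 bases printed above, both had their highest ratio in replicate 4. So did S100a4, S100a6 and S100a16, so this is not particular to the pair. The means of S100a1 and S100a13 lay on different sides of 0, within their intervals. Of 12 smooth muscle markers and 12 ureteric mesenchyme and fibroblast markers, 0 passed in either direction and 0 at an unadjusted p under 0.05 (limma), with medians of 0.01 and -0.04. Skeletal and heart muscle markers had a median of -0.23, with 2 of 13 lower. These were Myl1, a myosin light chain, at -0.78 ± 0.12 (limma adjusted p = 0.0105) and Ckm, the muscle creatine kinase, at -0.71 ± 0.26 (0.0247). Before adjustment 6 of 13 were lower at p under 0.05 (limma), against 4.31% of all genes. Myl1 missed with no replicate block (adjusted p = 0.163) and Ckm with no filter on dim probes (0.0959), and both with the authors' deposited table. Their part in the ratios of S100a1 was not tested.

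The remaining S100 genes of the mouse, together with S100pbp, which is not itself an S100 gene, serve as a comparison. Of this list 6 genes were tested and 0 passed (limma), with a median of 0.02. Before adjustment 1 was lower at p under 0.05 (limma), against 4.31% of all genes. S100a3, known from the hair cuticle, was 7.98, 8.06, 8.27 and 8.25 in cKO RNA and 8.47, 8.70, 8.92 and 8.40 in control RNA. All cKO levels were below all control levels, and 6.38% of all genes showed no overlap in one direction or the other. The ratios were -0.49, -0.64, -0.65 and -0.16, a mean of -0.48 ± 0.23 (adjusted p = 0.130 by limma), with the smallest change in replicate 4. It passed in 3 of 14 alternatives: with a term for sex (adjusted p = 0.0177), without replicate 2 (0.0338) and without replicate 4 (0.00209). In the fit with a sex term all genes have the same variance, so the spread of S100a3 itself did not enter. Without replicate 2 or 4, its own spread came from replicates 1 and 3 alone.

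S100g, or calbindin-D9k, a vitamin D dependent calcium buffer encoded on the X chromosome, had ratios of -0.60, -0.94, 0.56 and 0.93. Both female pairs were below 0 and both male pairs above, and its other probe gave -0.55, -1.02, 0.56 and 0.76. The female minus male difference was -1.51, with adjusted p = 8.1e-05 by limma with dye and sex terms, in the fit that gives all genes the same variance. Without the dye term it had unadjusted p = 9.7e-05 and adjusted p = 1.00. S100a5 gave a mean of 0.25 ± 0.25, S100a2 -0.11 ± 0.14 and S100b, the glial S100 gene, 0.11 ± 0.10. S100pbp, which encodes a protein that binds S100 proteins, gave 0.06 ± 0.26. Of 12 glia and neuron markers 0 passed (limma), with 1 lower before adjustment, against 4.31% of all genes. S100a7a and S100z were not well above background on any array.

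The probes of the members span 3.05 Mb of chromosome 3, in which 48 genes were tested, 13 S100 genes and 35 others. In this span 1 gene was lower, S100a14, and 1 higher, Sprr1a, a cornified envelope precursor at 0.69 ± 0.20 (limma adjusted p = 0.0380), which is 4.17% of 48 beside 1.19% of all genes. The count rose to 6 without replicate 2 and to 5 without replicate 4. The median of the span was -0.00458. Within 100 kb of the S100a14 probe lie 8 tested genes, all of them S100 genes, and 0 passed (limma). At an unadjusted p under 0.05, 2 passed (S100a3 and S100a6), against 8.03% of all genes. The median of the 8 was -0.02. S100a13, at 4.0 kb, and S100a16, at 14.1 kb, are the closest neighbours of S100a14 on either side, and the log2 ratio of neither passed.

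**Figure D4:**
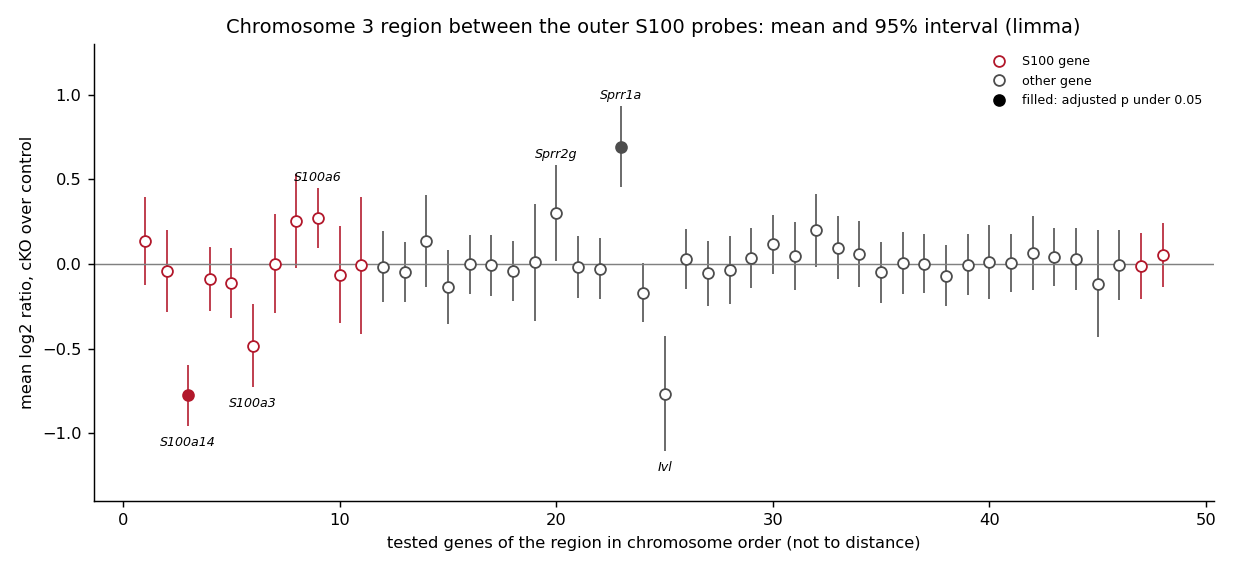
Mean log2 ratio of cKO over control with its 95% interval (limma, y axis) for the 48 tested genes of the chromosome 3 span in their order on the chromosome (x axis, not to distance). Filled symbols mark the 2 genes that passed, S100a14 (-0.78) and Sprr1a (0.69); most of the others lie near 0.

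Cornified envelope and other epidermal differentiation genes of the region showed 0 of 22 tested lower and 1 higher, Sprr1a, with a median of 0.01. Before adjustment 1 was lower and 2 higher at p under 0.05 (limma), against 4.31% and 3.72% of all genes. Sprr1a did not pass with median centring (adjusted p = 0.0690), with no filter on dim probes (0.143) or on the authors' deposited table (0.338). Ivl, the gene of involucrin, a cornified envelope scaffold, had a mean of -0.77 ± 0.34 and missed the threshold (adjusted p = 0.0843 by limma). It passed in 7 of 14 alternatives, among them each that left out 1 array (adjusted p of 0.0488 at most). Without replicate 1 and without replicate 3, limma gave all genes the same variance, so the spread of Ivl itself did not enter there. Of the fused S100 genes, large proteins of cornified cells that begin with an S100 domain, only Tchh was tested, at -0.01 ± 0.14, and 5 others were not well above background.

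Of 25 listed partners of S100 proteins, 1 was lower and 2 higher in cKO ureters, against 1.19% of all genes in either direction. The median was 0.01. Before adjustment 2 were lower and 5 higher at p under 0.05 (limma), against 8.03% of all genes. Ager, which encodes RAGE, a receptor of extracellular S100 proteins, had ratios of 0.94, 0.58, 0.76 and 1.32, a mean of 0.90 ± 0.32 (adjusted p = 0.0403 by limma). Trpv6, an epithelial calcium channel that S100a10 and Anxa2 help to reach the membrane, had 0.77, 0.76, 0.86 and 1.13, a mean of 0.88 ± 0.17 (adjusted p = 0.0122). Fgf1, the growth factor that S100a13 helps to export, had -0.67, -0.46, -0.74 and -0.87, a mean of -0.68 ± 0.17 (adjusted p = 0.0335). For these 3 genes all 4 arrays had the same sign and the levels of the genotypes did not overlap. Of all genes, 7.65% were lower and 7.69% higher on all 4 arrays, and 6.38% did not overlap. Among the partners that did not pass, Anxa11, Anxa1, Gfap and Trpv5 also met both, and the limit on Trpv5 is given below. With no filter on dim probes, Ager, Trpv6 and Fgf1 did not pass (limma adjusted p of 0.191, 0.0684 and 0.113). Nor did they on the authors' deposited table (0.403, 0.241 and 0.303). Fgf1 also missed with median centring (0.0566) and with the mean over its probes (0.0624).

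Other annexins and channels among the partners did not pass. Trpv5, the calcium channel related to Trpv6, was well above background on 4 of 4 arrays in cKO RNA and on 1 of 4 in control RNA. Its probe thus entered the test through the cKO RNA alone, and its ratio is not read as a difference between genotypes. It is among the 5 genes higher before adjustment. Anxa11, a partner of S100a6, had a mean of 0.49 ± 0.18 (limma adjusted p = 0.0970), and passed in 4 of 14 alternatives: without replicate 2 (0.00225), without replicate 4 (0.0178), with no dye term (0.0292) and with a sex term (0.0141). The limits given for S100a3 with a sex term and with these arrays left out hold here too. Anxa1, a partner of S100a11, had 0.40 ± 0.26 (adjusted p = 0.189), and Anxa2, the partner of S100a10, -0.05 ± 0.26. The receptor Tlr4 stood at 0.01 ± 0.06.

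Over all genes tested, those whose 4 log2 ratios were most like those of S100a14, by root mean square difference over the 4 arrays, were Cpne8, Pm20d1 and Gna15. Cpne8, a copine that binds membranes with calcium, differed by 0.11 and had a mean of -0.83 ± 0.18. Pm20d1, an enzyme that makes N-acyl amino acids, differed by 0.11 and had a mean of -0.79 ± 0.19, but -1.42 with the scanner software's processed signals and -1.38 in the authors' deposited table, where S100a14 had -0.81 and -0.82. Gna15, a G protein alpha subunit, differed by 0.12 and had a mean of -0.80 ± 0.13. With the processed signals and in the deposited table, Gna15 gave -1.05 and -1.05, and Cpne8 -0.91 and -0.92. The likeness to S100a14 thus depends on the processing. Cpne8, Pm20d1 and Gna15 lie on chromosomes 15, 1 and 10, and were picked for this likeness.

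**Figure D5:**
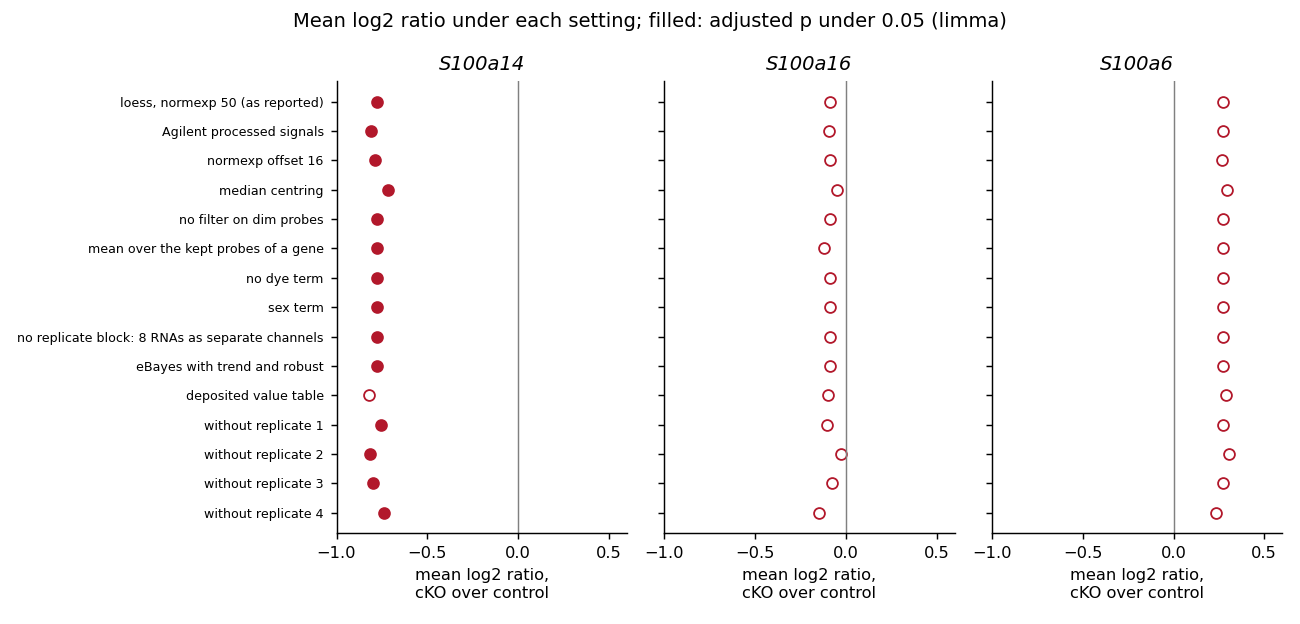
Estimated mean log2 ratio of cKO over control (x axis) of S100a14, S100a16 and S100a6 under the reported processing and 14 alternatives (y axis). Filled symbols passed an adjusted p of 0.05 (limma). S100a14 stays between -0.82 and -0.72 and is unfilled only for the deposited value table, and S100a16 and S100a6 are unfilled throughout.

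The plot of settings shows how far processing moves the members. S100a14 kept its sign in all 14 alternatives and passed in 13. S100a16 ranged from -0.15 to -0.03 and passed in none, with adjusted p of 0.259 or more. Of the 10 members, 5 changed the sign of their estimate under at least 1 alternative (S100a4, S100a8, S100a9, S100a11 and S100a13). All of these have an interval that includes 0, so no direction is given for them. The intervals of the 8 members that include 0 have bounds between -0.41 and 0.40.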

How the data were processed

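The authors' deposited scanner output gives intensity values per spot (mean signal, median local background and processed signal of either channel) and other columns (flags). Per the submitters' processing notes, it was made in Agilent Feature Extraction, version 10.7.3.1. Per the labels' protocols, 200 ng of total RNA was labelled after a T7 amplification of 1 round. The authors' deposited value table holds log2 ratios. Against the processed signals it gave cKO over control with slopes of 0.781 to 0.824; its column medians are 0 and 32.2% to 32.6% of values are exactly 0, by a rule not given in the sources used here.

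Intensities were corrected with normexp (offset 50), normalised by loess within arrays with control spots at weight 0, turned to cKO over control and averaged over the 4 spots of a probe. Nonuniform spots (17 to 35 per array) were left out. Probes were kept with a share of at least 0.5 of spots well above background on all 4 arrays in either RNA (28611 probes), and each gene was given its brightest kept probe. Of all probes, 30385 carried a symbol of the reference gene table (GRCm38.p6, used for names) and 1343 were named by accession. Levels are channel values after loess and Aquantile.

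limma 3.58.1 in R 4.3.3 fitted cKO over control and a dye term; p-values are two-sided. The array is the pair (replicate block). Slide and scan date are shared by the 4 arrays. The fit was tested on simulated data. The members and lists were chosen with earlier results of these data known. All members, Trp63, the other S100 genes, the region genes that passed and the 3 genes most like S100a14 are named. List genes that passed, or else up to 3 per list with the smallest p, were eligible, and only some are named. Of the 8 basal urothelial markers that passed, Krt5 alone is named, and several lists without a gene that passed have none. Further examples were chosen after their values were seen.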

Additional observations from a re-analysis of the deposited data

Results flagged for a closer look

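S100a9 had log2 ratios above 0 in both female pairs (0.61 and 0.05) and below 0 in both male pairs (-0.37 and -0.32), a female minus male difference of 0.675 that did not pass the limma test of the difference (adjusted p = 1.00). S100g had the opposite pattern in a wider range, with a female minus male difference of -1.51, adjusted p = 8.1e-05 with dye and sex terms in limma and adjusted p = 1.00 without the dye term. With 2 pairs per sex, each difference rests on 4 arrays. S100b stood at -0.036 in replicate 4 and between 0.15 and 0.16 in the other 3 pairs, a gap that is large for its range. Such gaps were searched for in the ratios and in the levels of each genotype, for Trp63, the members and the other S100 genes. This was the only gap flagged, and chance sets apart about 1 in 20 groups of this size.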

How the results depend on the processing

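With 14 alternatives, 1 of the 10 S100 genes passed in 13; the authors' deposited table gave 0, and 0 genes of the chromosome 3 span (the cause was not tested). The span's count of 2 became 1 with median centring and with no filter on dim probes, 4 with a sex term, and 3 to 6 when 1 array was left out. The count of all genes (257) became 86 with no filter, 460 without the dye term, 542 with a sex term, 386 with no replicate block, so with the pairing dropped, and 1 with the deposited table; leaving out 1 array gave 283 to 1601. The cause was not tested. S100a14 stayed between -0.81 and -0.74 when 1 array was left out, with adjusted p of 0.000252 to 0.00121 (limma). With no replicate block S100a14 passed too. The median of all genes moved by 0.03 at most. Without replicate 1 or 3, limma gave all genes the same variance. Trpv5, not well above background on 3 control arrays, gave 1.80 with processed signals and 0 in the deposited table; the cause was not tested.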
